A study of Mus musculus with 9 samples.

Results

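The BCL2 family genes described here are Bcl2, Bcl2l1, Bcl2l11, Mcl1, Bcl2a1b, Bax, Bak1, Bad, Pmaip1 and Bbc3, 10 of the 56860 genes of the deposited count table, taken by their gene names and not by their values. All 10 were among the 19348 genes that passed the filter on low counts. RNA was sequenced from mouse spleen cells labelled as CD4+ T cells, in 9 libraries. The groups were 3 libraries from mice labelled control, 3 from mice labelled CIA alone, and 3 from CIA mice treated with luteolin, a flavone made by plants. Th17 cell differentiation and RA appear in the title of the series. CIA is not spelled out in the labels, which give no strain, age, dose or duration of treatment. Nothing there tells whether the replicates of a group came from different animals, so p-values cover only the spread among the libraries at hand, which may be technical.

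The libraries held between 31234177 and 41815573 counts. Cd4, whose protein names the labelled cell type, was at 3.65, 2.46 and 2.66 CPM (counts scaled to the TMM-adjusted library total) in control, 82.1, 151 and 150 in CIA and 106, 106 and 98.5 with luteolin, replicates 1 to 3 in that order as everywhere below. The summed level of 13 neutrophil markers was 2051 to 2422 CPM in control, 6715 to 11349 in CIA and 8559 to 8998 with luteolin. That sum hides opposite moves, since 6 of the markers rose and 7 fell in luteolin against CIA. Mean Mpo was 1.54 CPM in CIA and 261 with luteolin, and mean Ly6g 8.58 and 1.57, a pair of markers named after their values were seen. For 10 T cell markers the sum was 267.6 to 293.4, 424.6 to 659.3 and 430.8 to 455.9 CPM, so in every library the summed neutrophil markers were above those of the labelled cell type. Of the neutrophil sum S100a9 alone made up 1648, 6744 and 3971 CPM on average in control, CIA and luteolin. Sums over different genes do not rank the numbers of cells. The 10 B cell markers summed to 2127 to 2216 CPM in control, 308.2 to 1824 in CIA and 435.9 to 539.2 with luteolin. For 12 macrophage markers the sums were 269.4 to 366.3, 168.0 to 217.3 and 664.4 to 772.3 CPM. Single macrophage markers moved by more than the sums, which a few abundant genes dominate. In CIA against control 10 fell and 0 rose (median log2 fold change -3.36), and in luteolin against CIA all 12 rose (median 5.56). The 8 mast cell and basophil markers summed to 11.47 to 16.08, 69.41 to 131.8 and 210.5 to 231.5 CPM. The 9 CD8 T cell and NK cell markers summed to 47.31 to 68.47, 25.82 to 35.22 and 33.46 to 37.22 CPM, and 3 rose and 4 fell in CIA against control. Mean Cd8a and Cd8b1, named after their values were seen, were 17.6 and 29.5 CPM in control, above the 2.92 of Cd4. In CIA they were 4.77 and 8.96 CPM, below the 128 of Cd4, and with luteolin 4.15 and 7.37 CPM. No marker of these lists was at 0 in all libraries. The part of such other cells in the results below was not tested, and in bulk RNA fewer cells of a type and less RNA per cell cannot be told apart.

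Proteins of the BCL2 family decide at the outer mitochondrial membrane whether a cell undergoes apoptosis. The guardians BCL2, BCL-XL (gene Bcl2l1), MCL1 and A1 (the Bcl2a1 genes) hold the pore formers BAX and BAK in check. The BH3-only proteins BIM (Bcl2l11), BAD, NOXA (Pmaip1) and PUMA (Bbc3) bind the guardians and free or activate the pore formers, after which cytochrome c leaves the mitochondria and caspases are activated. In T cells BCL2 supports resting and memory cells, BIM removes cells deprived of cytokine or specific for self antigens, and MCL1 is needed at most stages. MCL1 and A1 are also the guardians of short-lived neutrophils.

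Bcl2a1b is 1 of several near-identical gene copies on chromosome 9, and the first 120 coding bases of 3 copies are shown to make plain how little separates them. They are from the GENCODE M21 transcripts of build GRCm38, 5′ to 3′, with capitals at the 7 bases where the 3 are not all alike.
Bcl2a1a: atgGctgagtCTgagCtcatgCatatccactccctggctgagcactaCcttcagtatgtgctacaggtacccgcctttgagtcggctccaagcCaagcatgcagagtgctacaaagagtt
Bcl2a1b: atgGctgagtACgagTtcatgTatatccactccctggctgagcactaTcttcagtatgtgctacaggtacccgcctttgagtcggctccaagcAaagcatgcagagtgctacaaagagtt
Bcl2a1d: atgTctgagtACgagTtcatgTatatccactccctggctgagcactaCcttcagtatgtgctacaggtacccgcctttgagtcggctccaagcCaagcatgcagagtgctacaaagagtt
Over the whole coding sequence of 516 bases only 12 positions differed among the 3 copies. Bcl2a1b and Bcl2a1d differed at 6 bases (98.8% identity) and shared a run of 217 bases with no difference, longer than the 150 bases of a read. Bcl2a1a differed from Bcl2a1b at 11 bases and from Bcl2a1d at 7. How reads that fit several copies were assigned is not given in the sources used here, so the counts of single copies are uncertain, and their sum is given beside them.

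For Bcl2l11 and Bax a stretch of 100 bases upstream of the start is shown, since these genes are textbook targets of FOXO factors and of p53. The former holds a FOXO motif and the latter a single p53 decamer, which is only a part of a full p53 site. In 9 of the 10 genes (all but Pmaip1) the 250 bases upstream of each RefSeq start of build GRCm38.p6 were searched on both strands for 6 motifs. In the Bcl2l11 stretch, chr2:128125788-128125887 on the plus strand, capitals mark the FOXO motif GTAAACA, and in the Bax stretch, chr7:45467045-45467144 on the minus strand, the p53 decamer.
Bcl2l11: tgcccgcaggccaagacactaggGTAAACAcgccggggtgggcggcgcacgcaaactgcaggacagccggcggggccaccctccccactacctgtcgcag
Bax: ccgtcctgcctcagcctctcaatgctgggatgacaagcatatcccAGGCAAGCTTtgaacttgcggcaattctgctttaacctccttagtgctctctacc
The FOXO motif was present in 3.17% of 32851 promoters of the same length, and the p53 decamer in 7.13%. Among the 9 genes only Bax held a match to the p53 decamer, so Bbc3 had none. Other matches were 1 FOXO motif at a second start of Bbc3, and the kappaB consensus, found in 7.25% of promoters, at a start of Bcl2l1 and of Bbc3. The other motifs, GAS (TTCNNNGAA, in 7.02% of promoters), CRE (TGACGTCA, in 1.55%) and the ISRE core (in 2.98%), had no match in these windows. Over the same 250 bases Bcl2a1a and Bcl2a1d were 93% identical, and Bcl2a1b was 69.7% identical to Bcl2a1a and 66% to Bcl2a1d, gaps counted. For Bcl2a1b nearly all differing columns were gaps. Its 250 bases aligned with those of Bcl2a1a over 294 columns, of which 205 were identical. With Bcl2a1d they aligned over 300 columns, of which 198 were identical. Where both had a base, they were thus nearly the same.

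In the deposited coordinates, build mm39, Bcl2 lies on chromosome 1 from 106465908 to 106642004 on the minus strand and Mcl1 on chromosome 3 from 95566099 to 95570487 on the plus strand. Bcl2l1 (152622588 to 152673648, minus strand) and Bcl2l11 (127967958 to 128004467, plus strand) share chromosome 2. Bax (45111121 to 45116322, minus strand) and Bbc3 (16042318 to 16052130, plus strand) share chromosome 7. Bcl2a1b lies on chromosome 9 from 89081262 to 89089880 on the plus strand, Bak1 on chromosome 17 from 27238784 to 27247983 on the minus strand, Bad on chromosome 19 from 6919229 to 6929267 on the plus strand and Pmaip1 on chromosome 18. Exons of another gene cover 61.5% of the exonic bases of Bad, all on the opposite strand, 49.1% of Bcl2a1b, all on the same strand (gene model Gm29094), and 25.5% of Bak1. For Bax the share is 12.2%, on the same strand (gene model Gm45808, with 15577 counts over all libraries beside 19590 for Bax). For Bcl2 it is 6.09%, while Bcl2l1, Bcl2l11, Mcl1, Pmaip1 and Bbc3 share no exonic base. The library kit kept strand, per the labels, but the strand setting of the counting is not given in the sources used here, so reads of overlapping genes may be counted for either, and Gm29094 with 12121 counts over all libraries was as deep as Bcl2a1b with 10426.

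Compared per length, as CPM per kb of exons, Mcl1 stood far above every other member, at 212 ± 14.1 in control, 280 ± 4.83 in CIA and 223 ± 6.32 with luteolin (mean ± SD, n = 3 here and below). The neighbours in the order of control were Bcl2a1b at 41.6 ± 4.37 and Bax at 40.6 ± 4.95, whose libraries overlapped, then Pmaip1 at 18.4 ± 0.711, apart from both sides. The other 6 members of control were within a narrow band from 9.26 ± 0.629 for Bcl2 to 5.61 ± 0.908 for Bbc3, and in that band only Bak1 and Bcl2l1 were neighbours with no overlap. In CIA Pmaip1 at 37.13 ± 13.04 overlapped Bax at 37.46 ± 6.003, Bcl2a1b followed at 19.3 ± 0.382, and Bcl2 was last at 5.25 ± 1.23, overlapping Bad at 5.59 ± 0.433. With luteolin Bcl2a1b at 53.4 ± 1.22 CPM per kb came next after Mcl1 with no overlap, Bak1 at 16.3 ± 0.727 stood above Bad, Bcl2l1 and Bcl2, and Bbc3 at 3.77 ± 0.355 was last.

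**Figure D1:**
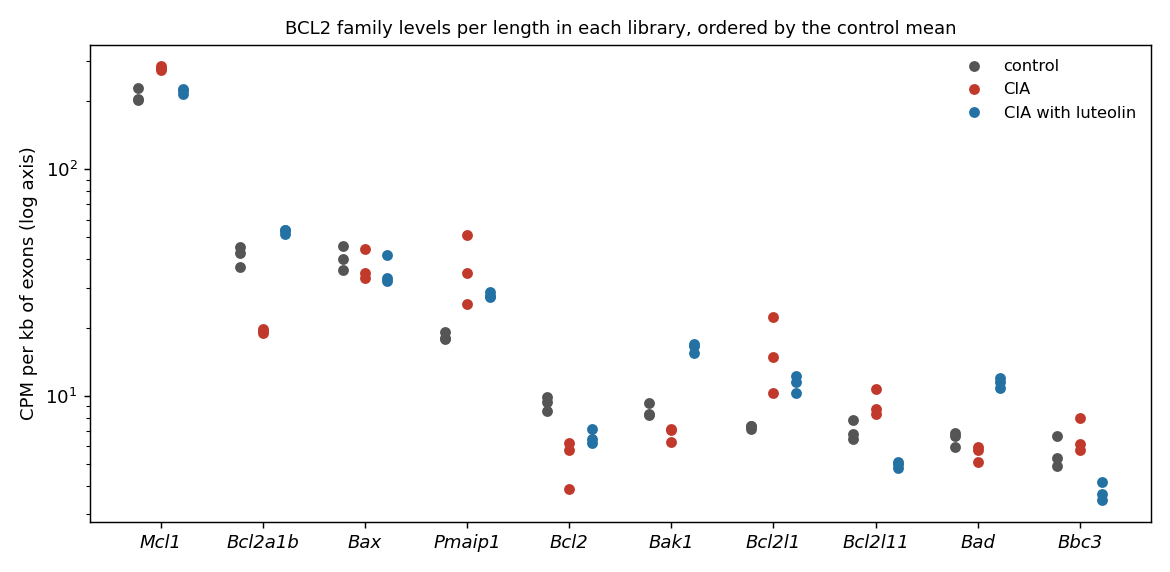
Level of each BCL2 family gene in CPM per kb of exons (log axis) in the 9 libraries, 1 point per library, with genes ordered by the control mean. Mcl1 lies above all other genes in every library, and the CIA points of Bcl2a1b lie below those of the other 2 groups.

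Between control and CIA mice the guardians split, with Bcl2l1 and Mcl1 higher in CIA and Bcl2 and Bcl2a1b lower. Of the effectors Bak1 fell by a small amount and Bax did not pass the test, and of the BH3-only genes Pmaip1 and Bcl2l11 rose while Bad and Bbc3 did not pass. Thus 4 members rose, 3 fell and 3 did not pass at an adjusted p of 0.05 in edgeR's quasi-likelihood test, with Benjamini-Hochberg adjustment over all 19348 genes, the source of every adjusted p below. That is 70.0% of the members, beside 51.1% of all tested genes (26.6% higher and 24.5% lower), and the median size of the log2 change was 0.40 in the members and 0.50 in all tested genes.

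Bcl2 was at 90.1, 85.6 and 78.7 CPM in control and at 56.5, 52.5 and 35.3 CPM in CIA. Every CIA library lay below every control library, with CIA replicate 3 lowest, and the log2 fold change was -0.82 ± 0.15 (SE; adjusted p = 0.00138). Bcl2a1b, the A1 copy, went from 34.7, 37.2 and 30.2 to 16.1, 15.5 and 15.8 CPM, a 2.15-fold fall (-1.11 ± 0.09, adjusted p = 1.47e-05). The CIA values of Bcl2a1b were nearly equal to each other and all were below control.

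Bcl2l1, which encodes BCL-XL, was even in control at 32.7, 33.8 and 33.8 CPM and uneven in CIA at 47.3, 67.8 and 102 CPM. The groups did not overlap, and Bcl2l1 was 2.17-fold higher in CIA (1.12 ± 0.22, adjusted p = 0.00175; 0.79 on the log2 scale without CIA replicate 3, adjusted p = 0.000247). Mcl1, the most abundant member, rose from 691, 702 and 779 to 974, 942 and 953 CPM (0.40 ± 0.07, adjusted p = 0.000703). Its CIA libraries were close together and all above control.

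Among the effectors, Bax was at 72.0, 63.5 and 56.5 CPM in control and 54.9, 52.4 and 69.9 in CIA, with overlapping groups (-0.12 ± 0.14, adjusted p = 0.515). Bak1 was at 19.9, 19.7 and 22.4 and 17.2, 17.0 and 15.1 CPM, lower in every CIA library (-0.33 ± 0.10, adjusted p = 0.0140), a call that was lost without control replicate 3 (-0.27, adjusted p = 0.0522). Bak1 was thus the only pore former called between control and CIA.

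Of the BH3-only genes, Pmaip1, which encodes the MCL1 and A1 antagonist NOXA, was at 49.3, 52.4 and 48.8 CPM in control and 69.4, 95.0 and 140 CPM in CIA. It was 2.02-fold higher with no overlap (1.01 ± 0.20, adjusted p = 0.00166), and CIA replicate 3 was highest, as for Bcl2l1. Bcl2l11, the gene of BIM, rose from 54.5, 51.6 and 62.5 to 70.4, 66.4 and 86.0 CPM (0.40 ± 0.11, adjusted p = 0.0113; 0.34 and not called without control replicate 2, adjusted p = 0.0567). Every CIA library was above control for Bcl2l11. Bad, whose protein is switched off by phosphorylation downstream of survival signals, was at 16.9, 17.4 and 15.2 and 13.1, 15.2 and 14.7 CPM (-0.21 ± 0.10, adjusted p = 0.106). The p53 target Bbc3 was at 14.1, 11.2 and 10.4 and 12.2, 13.1 and 17.0 CPM (0.24 ± 0.16, adjusted p = 0.232). Bad had groups that did not overlap although it did not pass, whereas those of Bbc3 overlapped. In all 8 members had groups without overlap, beside 58.7% of all tested genes (29.7% higher and 29.1% lower).

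**Figure D2:**
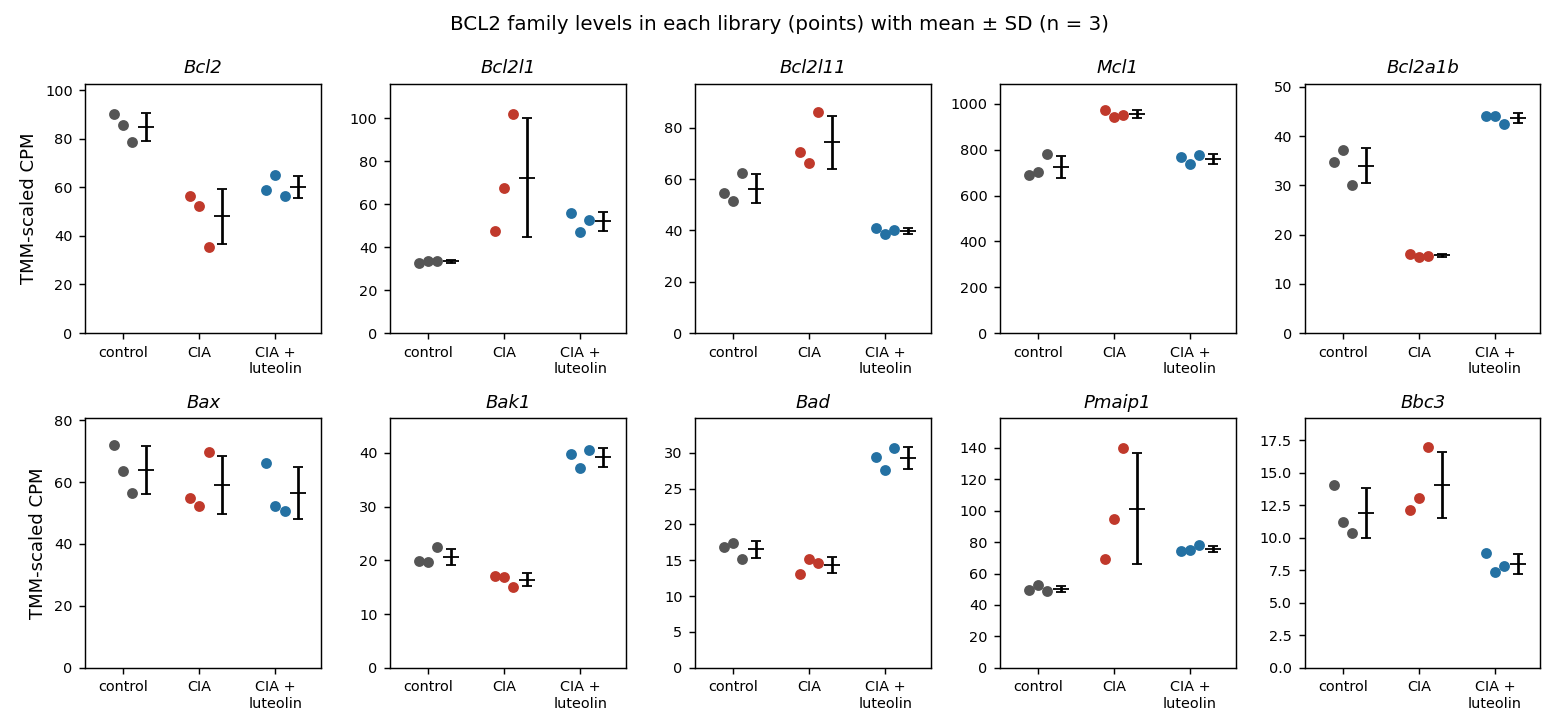
TMM-scaled CPM of the 10 BCL2 family genes in each library (points, replicates 1 to 3 from left to right) with the mean ± SD of 3 libraries per group (bars); each panel has its own axis from 0. Bcl2a1b is lowest in CIA, Bak1 and Bad are highest with luteolin, and the CIA points of Bcl2l1 and Pmaip1 are spread widest.

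In CIA mice given luteolin, compared with CIA alone, Bcl2a1b, Bak1 and Bad were higher and Bcl2l11, Bbc3 and Mcl1 were lower, so each role in the family held genes of both directions or a gene that did not pass. The 3 rises and 3 falls were 60.0% of the members, beside 47.3% of all tested genes (23.1% higher and 24.2% lower). Bcl2, Bcl2l1, Bax and Pmaip1 did not pass. The same CIA libraries enter this comparison and that with control, so the results of the pair are not independent.

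Bcl2a1b was at 44.2, 44.2 and 42.5 CPM with luteolin, far above the CIA libraries, and 2.76-fold higher (1.47 ± 0.09, adjusted p = 1.06e-06), the largest change of a member in any comparison. Bak1, the pore former BAK, was at 39.7, 37.2 and 40.6 CPM, all above the CIA libraries (1.26 ± 0.10, adjusted p = 3.36e-06). Bad was at 29.4, 27.7 and 30.7 CPM, a 2.04-fold rise (1.03 ± 0.10, adjusted p = 2.00e-05). For Bcl2a1b, Bak1 and Bad the treated libraries lay close together and above both other groups. The genes whose exons overlap those of Bad moved alike, Gpr137 by 0.67 ± 0.16, adjusted p = 0.00646 and the unnamed gene ENSMUSG00000120718 by 0.89 ± 0.10, adjusted p = 7.10e-05. The overlapping gene Gm29094 of Bcl2a1b changed by 1.22 ± 0.10, adjusted p = 4.86e-06 and Ggnbp1, which overlaps Bak1, by 1.0 ± 0.12, adjusted p = 9.50e-05, so how much of each rise is the member's own was not tested. Gm50253, the other gene over Bak1, did not pass (-0.23 ± 0.13, adjusted p = 0.163).

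Bcl2l11 fell to 40.9, 38.6 and 40.1 CPM, below every CIA and every control library (-0.90 ± 0.11, adjusted p = 0.000105). Bbc3 was at 8.83, 7.35 and 7.84 CPM, again below all other libraries (-0.81 ± 0.16, adjusted p = 0.00206). Both encode BH3-only proteins that bind all guardians. Mcl1 fell to 770, 736 and 777 CPM, within the range of the control libraries (-0.33 ± 0.07, adjusted p = 0.00228).

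Of the members that did not pass, Bcl2 was at 59.1, 65.2 and 56.4 CPM against 56.5, 52.5 and 35.3 in CIA, with 1 treated library below the highest CIA library (0.32 ± 0.15, adjusted p = 0.103). It was called higher without CIA replicate 1 (0.46, adjusted p = 0.0217) and without a filter on low counts (0.35, adjusted p = 0.0135), and not without CIA replicate 3 (0.14, adjusted p = 0.208). Bcl2l1 was at 55.9, 47.2 and 52.9 CPM (-0.48 ± 0.21, adjusted p = 0.0886) and Pmaip1 at 74.5, 75.2 and 78.1 CPM (-0.42 ± 0.19, adjusted p = 0.0985). The treated libraries of both genes overlapped the widely spread CIA libraries, and both genes were called lower without CIA replicate 1 (-0.70, adjusted p = 0.00196, and -0.62, adjusted p = 0.00227) and without a filter on low counts (-0.45, adjusted p = 0.000936, and -0.39, adjusted p = 0.00335). Without CIA replicate 3 they stood at -0.15 and -0.12 (adjusted p = 0.349 and 0.393). Bax was at 66.0, 52.4 and 50.6 CPM, overlapping CIA (-0.07 ± 0.14, adjusted p = 0.728). In all 6 members had groups without overlap, beside 55.7% of all tested genes (28.0% higher and 27.7% lower).

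**Figure D3:**
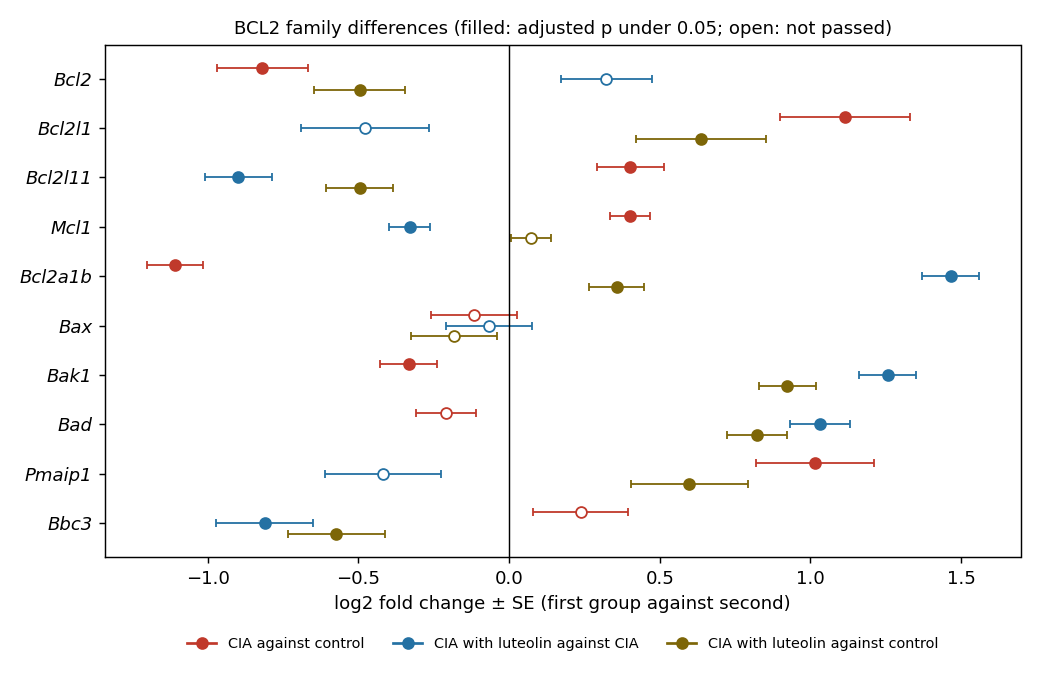
Log2 fold change ± SE of each BCL2 family gene in the 3 comparisons, with filled points for an adjusted p under 0.05 in edgeR and open points otherwise. Bcl2a1b in CIA with luteolin against CIA has the largest change, at 1.47, and Bax has open points throughout.

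Set against control, the treated libraries differed in 8 of the 10 members, with 5 higher and 3 lower, or 80.0% beside 45.0% of all tested genes (24.2% higher and 20.8% lower). Bak1 (0.92 ± 0.09, adjusted p = 3.60e-05) and Bad (0.82 ± 0.10, adjusted p = 0.000103) were the largest rises. Bcl2a1b was modestly higher (0.36 ± 0.09, adjusted p = 0.00874), and so were Bcl2l1 (0.64 ± 0.21, adjusted p = 0.0324) and Pmaip1 (0.60 ± 0.19, adjusted p = 0.0277). Bcl2 (-0.49 ± 0.15, adjusted p = 0.0211), Bcl2l11 (-0.49 ± 0.11, adjusted p = 0.00438) and Bbc3 (-0.57 ± 0.16, adjusted p = 0.0141) were lower. Mcl1 was at 761 ± 21.6 CPM against 724 ± 48.2 and did not pass (0.07 ± 0.07, adjusted p = 0.409), nor did Bax (-0.18 ± 0.14, adjusted p = 0.321). Of the 10 members 8 had groups without overlap, the same 8 that were called, beside 63.3% of all tested genes (32.3% higher and 30.9% lower).

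The calls of Bcl2a1b, Bak1, Bad and Bcl2l11 against control were held without any 1 library of the groups compared. Those of Bcl2l1, Pmaip1, Bcl2 and Bbc3 were not: 5 members were called without luteolin replicate 1, 4 without luteolin replicate 3, 4 without control replicate 1 and 5 without control replicate 2, in place of 8. With the CIA libraries left out of the model, Bcl2l1 (0.64, adjusted p = 4.26e-06), Pmaip1 (0.60, adjusted p = 1.12e-06), Bcl2 (-0.49, adjusted p = 3.65e-05) and Bbc3 (-0.58, adjusted p = 0.00132) were all called. Bcl2l1 lost its call without control replicate 1 (0.62, adjusted p = 0.0877), 2 (0.65, adjusted p = 0.0786) or 3 (0.65, adjusted p = 0.0787) and without luteolin replicate 1 (0.59, adjusted p = 0.0950) or 3 (0.63, adjusted p = 0.0794). Pmaip1 lost it without the same libraries, at 0.58 to 0.63. Bcl2 lost it without control replicate 1 (-0.45) or 2 (-0.49) and without luteolin replicate 1 (-0.48), 2 (-0.50) or 3 (-0.45). Bbc3 lost it without control replicate 1 (-0.43) and without luteolin replicate 2 (-0.46) or 3 (-0.55).

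With Bcl2a1a, Bcl2a1b and Bcl2a1d added up, A1 stood at 75.6, 81.4 and 64.4 CPM in control. Such a sum does not depend on how reads counted once were split among the copies. Reads dropped or counted for several copies would still change it, as would reads shared with Gm29094, whose exons overlap those of Bcl2a1b. The sum was 28.9, 26.7 and 24.3 CPM in CIA and 101, 96.1 and 93.8 CPM with luteolin. All CIA libraries were lowest and all treated libraries highest, with no overlap. The summed gene changed by -1.47 ± 0.10 in CIA against control (adjusted p = 5.57e-06), by 1.86 ± 0.10 in luteolin against CIA (adjusted p = 4.67e-07) and by 0.39 ± 0.10 in luteolin against control (adjusted p = 0.00926). Bcl2a1b held 46.0% of the summed counts in control, 59.0% in CIA and 45.0% with luteolin, while Bcl2a1a held 13.6%, 5.66% and 20.1%. The single copies moved the same way in CIA, Bcl2a1a by -2.74 ± 0.24, adjusted p = 1.83e-05 and Bcl2a1d by -1.67 ± 0.14, adjusted p = 1.30e-05, and with luteolin against CIA by 3.70 ± 0.24, adjusted p = 1.26e-06 and 1.85 ± 0.14, adjusted p = 2.92e-06. Against control, the luteolin libraries were higher for Bcl2a1a (0.96 ± 0.21, adjusted p = 0.00341), and Bcl2a1d did not pass (0.18 ± 0.13, adjusted p = 0.287).

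Opposing members were also set against each other as ratios of levels per kb within a library, which do not depend on the scaling of libraries. These are descriptions with no test. Bcl2 over its pore former Bax was 0.215, 0.232 and 0.240 in control and 0.177, 0.173 and 0.0869 in CIA. With luteolin the ratio was 0.154, 0.214 and 0.192, so CIA and luteolin each lay below control but overlapped each other. Bcl2 over its antagonist Bcl2l11 was 1.45, 1.46 and 1.105 in control, 0.704, 0.694 and 0.3596 in CIA and 1.27, 1.48 and 1.23 with luteolin. That ratio was lower in every CIA library than in any other, and control and luteolin overlapped.

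Bcl2l1 over Bad went the other way, at 1.08, 1.08 and 1.24 in control, 2.02, 2.49 and 3.88 in CIA and 1.06, 0.953 and 0.962 with luteolin. All CIA libraries were above the rest, and the treated libraries lay just below control. Mcl1 over Pmaip1 was 11.2, 10.7 and 12.8 in control, 11.2, 7.92 and 5.45 in CIA and 8.26, 7.83 and 7.95 with luteolin. In that pair CIA spanned the other 2 groups, from the level of control in replicate 1 to below the treated libraries in replicate 3.

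**Figure D4:**
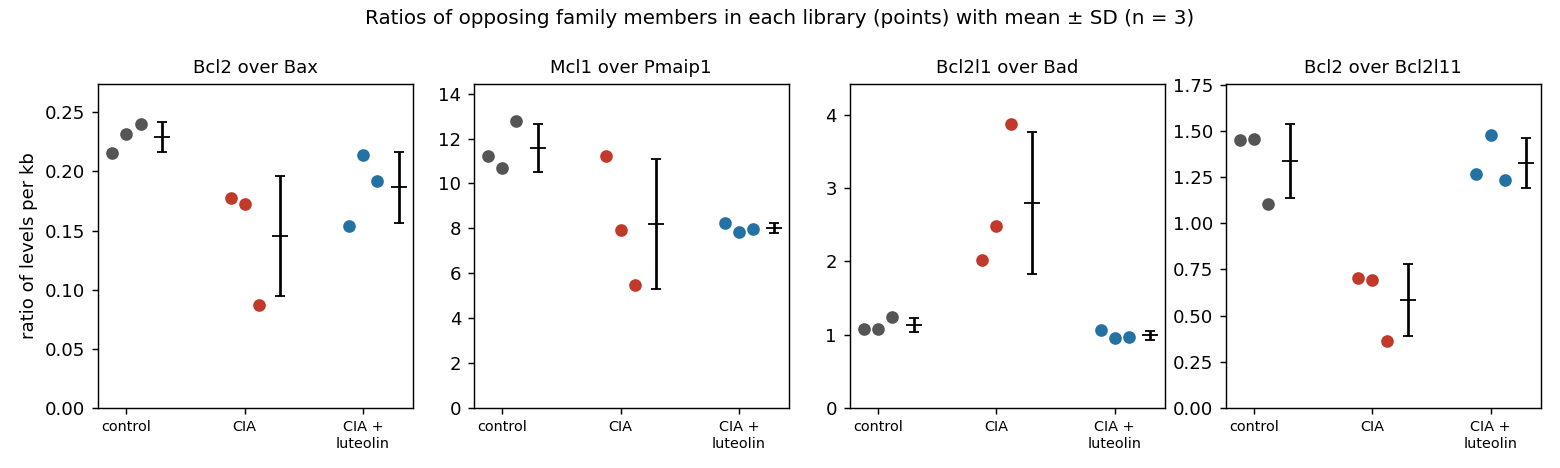
Ratios of opposing BCL2 family genes, each per kb of exons, in each library (points) with the mean ± SD of 3 libraries (bars). Bcl2 over Bcl2l11 is lowest and Bcl2l1 over Bad is highest in the 3 CIA libraries.

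Bcl2l1, Pmaip1 and Bcl2 varied far more within CIA than within the other groups. The CIA libraries also differed most from each other over all genes with enough counts. There the chi-square per degree of freedom between 2 libraries was 32.2 to 114 in CIA, 6.73 to 16.1 in control and 5.51 to 9.41 with luteolin. The highest library exceeded the lowest by 2.16 times for Bcl2l1, 2.01 for Pmaip1 and 1.60 for Bcl2 in CIA, whereas no member exceeded 1.35 times within control or 1.30 within luteolin. Mcl1 and Bcl2a1b were even in CIA, at 1.03 and 1.04 times, and less so in control, at 1.13 and 1.23. In CIA replicates 1, 2 and 3 the B cell markers summed to 1824, 1051 and 308.2 CPM and the neutrophil markers to 6715, 10062 and 11349 CPM. Bcl2 was thus highest in the CIA library with most B cell and fewest neutrophil transcripts, and Bcl2l1 and Pmaip1 in the library with the reverse. Other marker sums also differed among CIA replicates 1, 2 and 3. T cell markers summed to 424.6, 647.8 and 659.3 CPM and mast cell and basophil markers to 69.41, 93.90 and 131.8 CPM. Macrophage markers summed to 169.3, 168.0 and 217.3 CPM. The part of these cells in the differences was not tested.

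The rest of the family was measured beside the members, from a list chosen with earlier results of these data known. Of 10 such genes 5 passed the filter, namely Bcl2l2, Bcl2a1a, Bcl2a1d, Bid and Bmf. Bcl2l10, Bcl2a1c, Bok, Bik and Hrk had at most 8 counts in any library. In CIA against control 1 rose and 2 fell, or 60.0% of the 5 beside 51.1% of all tested genes, with a median log2 fold change of -0.14 beside -0.01 over all tested genes. Bmf, a BH3-only gene, rose (0.45 ± 0.10, adjusted p = 0.00278), and the falls were the A1 copies above. In luteolin against CIA 3 rose and 2 fell, or 100% beside 47.3% (median 0.84, beside -0.04 over all tested genes). The guardian gene Bcl2l2, which encodes BCL-W, rose from 13.2 ± 1.79 to 23.6 ± 1.77 CPM (0.84 ± 0.12, adjusted p = 0.000333). Bmf (-0.59 ± 0.10, adjusted p = 0.000594) and Bid (-0.50 ± 0.12, adjusted p = 0.00555), whose protein links death receptors to BAX and BAK, fell, as did the members Bcl2l11 and Bbc3. The other BH3-only members did not fall alike, since Bad rose and Pmaip1 did not pass.

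Downstream of the mitochondria, 5 of 19 genes of the apoptosome and caspase list rose in CIA against control, 5 fell and 9 did not pass (median -0.07). The called share was 52.6%, near the 51.1% of all tested genes. Apaf1, the scaffold that cytochrome c assembles, rose from 30.1 ± 0.818 to 63.8 ± 12.9 CPM (1.08 ± 0.13, adjusted p = 0.000103). Birc5, the inhibitor survivin, which is made in dividing cells, fell (-1.16 ± 0.15, adjusted p = 0.000161). Only 6 of the 19 were called without control replicate 1, and 6 with the luteolin libraries left out of the model. In luteolin against CIA 9 rose, 3 fell and 7 did not pass (median 0.14), a called share of 63.2% beside 47.3%. Birc5 rose from 6.54 ± 1.42 to 30.9 ± 2.65 CPM (2.24 ± 0.15, adjusted p = 1.44e-06), and the mitochondrial channel gene Vdac3 rose by 0.81 ± 0.10, adjusted p = 7.83e-05. The sum of 10 cell division markers moved with Birc5, at 1324 to 1360 CPM in control, 387.4 to 515.1 in CIA and 2351 to 2431 with luteolin.

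In the list of death receptors and their adaptors 4 of 11 genes rose in CIA against control, 2 fell and 5 did not pass (median 0.11). The called share of 54.5% was near the 51.1% of all tested genes. Fas, which starts apoptosis at the cell surface, rose from 65.2 ± 5.10 to 187 ± 51.1 CPM (1.52 ± 0.17, adjusted p = 7.76e-05), as did the TNF receptor gene Tnfrsf1a (1.70 ± 0.21, adjusted p = 0.000135) and Fasl, the ligand of Fas (1.13 ± 0.21, adjusted p = 0.00157). Of the 11 genes 3 were called without control replicate 2, and 3 without control replicate 3. In luteolin against CIA 3 rose, 2 fell and 6 did not pass (median -0.03), a called share of 45.5% near the 47.3% of all tested genes. Fas fell to 103 ± 8.36 CPM (-0.86 ± 0.17, adjusted p = 0.00191), while the initiator caspase gene Casp8 (0.58 ± 0.09, adjusted p = 0.000505) and the kinase gene Ripk1 (0.48 ± 0.08, adjusted p = 0.000606) rose. Tnfrsf1a (-0.08 ± 0.20, adjusted p = 0.763) and Fasl (-0.14 ± 0.20, adjusted p = 0.613) did not pass.

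Of the 12 genes of the p53 list 11 were tested, and of these 5 rose and 2 fell in CIA against control (median 0.32), and 1 rose and 4 fell in luteolin against CIA (median -0.15). The called shares were 63.6% beside 51.1% of all tested genes in the former and 45.5%, near the 47.3% of all tested genes, in the latter. Trp53inp1, a p53 target, was at 74.8 ± 5.74, 217 ± 54.8 and 91.0 ± 5.86 CPM in control, CIA and luteolin (1.54 ± 0.16, adjusted p = 4.52e-05, and -1.25 ± 0.16, adjusted p = 0.000114 for luteolin against CIA). Mdm2, the p53 ubiquitin ligase and itself a target, rose in CIA (1.56 ± 0.30, adjusted p = 0.00170; 1.005 without CIA replicate 3) and fell with luteolin (-1.38 ± 0.30, adjusted p = 0.00347; -0.82 without CIA replicate 3). Ccng1, another target, went the other way, by -0.53 ± 0.07, adjusted p = 0.000221 and 0.48 ± 0.07, adjusted p = 0.000377. Mdm4, another inhibitor of p53, was lower with luteolin (-0.58 ± 0.09, adjusted p = 0.000358). Among the members, Pmaip1, Bbc3 and Bax are textbook p53 targets. Of them Pmaip1 was called when CIA was compared with control and Bbc3 when luteolin was compared with CIA, and whether their changes differ was not tested.

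Survival receptors and their signalling genes made up the last list of 14 genes, of which 8 rose and 1 fell in CIA against control (median 0.33), and 4 rose and 4 fell in luteolin against CIA (median -0.06). The called shares were 64.3% beside 51.1% of all tested genes and 57.1% beside 47.3%. Stat5a, through which IL-2 and IL-7 sustain Bcl2, rose from 23.2 ± 0.835 to 87.2 ± 34.5 CPM (1.91 ± 0.23, adjusted p = 0.000121) and was lower with luteolin (-0.88 ± 0.23, adjusted p = 0.00858; -0.56 without CIA replicate 3). Il2rb, a receptor chain for IL-2 and IL-15, rose in CIA (1.36 ± 0.16, adjusted p = 0.000115). Il15ra, another receptor chain for IL-15, fell in CIA (-0.90 ± 0.12, adjusted p = 0.000196) and rose with luteolin (2.40 ± 0.12, adjusted p = 2.24e-07). Csf2rb, the shared chain for GM-CSF and IL-3 of myeloid cells, also rose with luteolin (1.498 ± 0.097, adjusted p = 1.15e-06). Jak1 changed by 0.29 ± 0.06, adjusted p = 0.00399 and -0.60 ± 0.06, adjusted p = 3.88e-05 in the same comparisons. In the treated libraries the macrophage marker Csf1r was also higher, at 284 ± 32.4 against 75.2 ± 15.3 CPM in CIA.

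**Figure D5:**
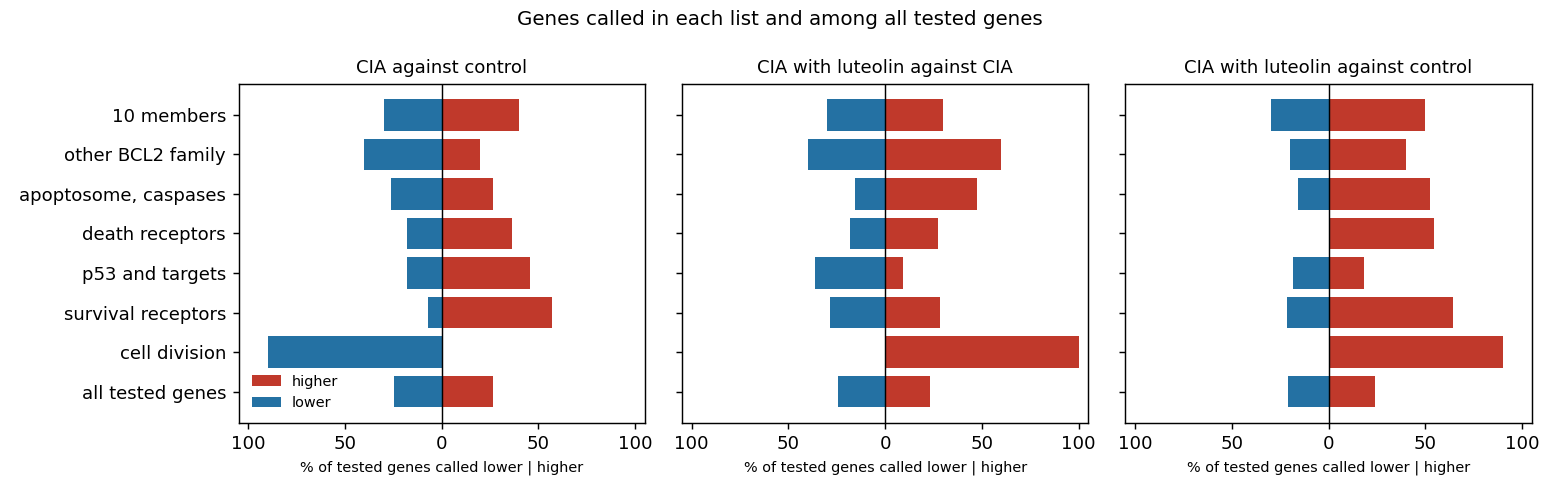
Percent of tested genes called higher (right, red) and lower (left, blue) at an adjusted p under 0.05 in each list and among all 19348 tested genes, for the 3 comparisons. Of the members 70.0% were called in CIA against control, and 60.0% after luteolin relative to CIA, with bars on both sides, whereas the cell division markers are lower in the former and higher in the latter.

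The genes most like a member over the 9 libraries were sought among 11376 tested genes with a mean of at least 2 CPM. Parp2 (Pearson r = 0.998 of log2 CPM), Cep295 (0.997) and Dnajb2 (0.996) were nearest to Bcl2, and Prdm2 (0.997), Aff4 (0.993) and Ddx39b (0.989) to Bcl2l11. Parp2 was at 53.6, 25.3 and 33.9 CPM on average in control, CIA and luteolin, and Prdm2 at 225.7, 284.9 and 169.3. For Bax, which passed the test in no comparison, the nearest were Cebpb (0.891), Hnrnpd (0.874) and the unnamed gene ENSMUSG00000121578 (0.858). The points are 3 groups of 3 libraries that share their group means, so such values describe likeness over these libraries alone.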

How the data were processed

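Trimmomatic 0.36 trimmed the reads, per the submitters' processing notes. Per the labels' protocols, mapping was done by software spelled STRA (2.5.3a). The build is mm39 in the processing notes and CHOK1GS, a hamster genome, in the protocol. The authors deposited raw counts per gene and library, made with featureCounts (Subread 1.5.1), per the labels' protocols. The strand setting, the treatment of reads on several genes and whether mates were counted separately are not given in the sources used here. Gene lengths are other deposited values of the same table.

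Of 56860 genes 19348 passed filterByExpr in edgeR 4.0.16 (R 4.3.3). With TMM factors of 0.95 to 1.02, 1 quasi-likelihood model of the 3 groups took in all 9 libraries, and glmQLFTest, which is 2-sided, compared the groups in pairs, with p-values adjusted by Benjamini-Hochberg over every tested gene and a threshold of 0.05. The SE was taken from the log2 fold change and the F statistic (size over the root of F). The procedure was tested on simulated counts. DESeq2 1.42.0, other scalings and filters, halved counts, a block on replicate number and leaving out each library were tried. Replicates of a group were not duplicates; the lowest chi-square per degree of freedom between them was 5.51.

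The members and lists were chosen with earlier results of these data known. All 10 members are named, with all tested other family genes and, from each pathway list, up to 3 genes with the smallest p in either comparison with CIA, of which some are not reported here. Markers and, after their values were seen, genes overlapping members were added, as were the 3 genes most correlated with Bcl2, Bcl2l11 and Bax. Promoter sequences are from RefSeq, build GRCm38.p6, where 9 of 10 members were matched.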

Additional observations from a re-analysis of the deposited data

How the results depend on the processing

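Over 453 values of the members under all alternatives, 423 kept their direction and their side of the threshold, 20 lost a call, 7 gained one and 3 changed sign. Of 1080 values of the other genes chosen by the naming rule 1042 kept both, 10 lost and 7 gained a call and 21 changed sign. Every value that changed sign was uncalled before and after. In luteolin against CIA, leaving out a library gave -0.188 to 0.068 for Bax in place of -0.07 (above 0 without CIA replicate 3 or luteolin replicate 2 or 3), -0.308 to 0.178 for Tnfrsf1a in place of -0.08, and -0.125 to 0.156 for Apaf1 in place of -0.001. Apaf1 was also at 0.010 with DESeq2 size factors, 0.019 in DESeq2, 0.020 with the filter of 1 CPM, 0.026 with no filter, 0.035 with the third group left out, 0.013 with the replicate block and 0.043 with total counts. In CIA against control, it gave -0.028 to 0.206 for Bid in place of 0.12, -0.079 to 0.060 for Mdm4 in place of -0.02, -0.133 to 0.005 for Vdac3 in place of -0.06, and -0.075 to 0.097 for Csf2rb in place of -0.007. Csf2rb was also at 0.009 with halved counts, 0.002 with DESeq2 size factors, 0.004 with the filter of 1 CPM and 0.003 with upper quartile factors. Leaving out a library gave 8073 to 11065 called genes in CIA against control, 7289 to 9884 in luteolin against CIA and 6835 to 7552 in luteolin against control, and 6 to 7, 6 to 9 and 4 to 6 called members in place of 7, 6 and 8. The ranges for the apoptosome and caspase list in CIA against control were 6 to 11 genes in place of 10, and for the death receptor list 3 to 7 in place of 6. With the third group left out of the model 6 apoptosome and caspase genes were called in CIA against control. The cause was not tested. The other alternatives (DESeq2, its size factors, upper quartile factors or total counts, no filter or 1 CPM in 3 libraries, halved counts) gave 7, 6 to 9 and 8 called members, the 9 with no filter.

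Equal replicate numbers did not pair the libraries, with correlations of deviations from the group means of 0.02 to 0.11. With the replicate number as a block 9794, 9148 and 8764 genes and 7, 7 and 8 members were called in the 3 comparisons, and Bcl2 in luteolin against CIA, at 0.34 (adjusted p = 0.0420), was the only member whose call changed. Each member had 264 counts or more in every library. Depth was too low only for Bcl2l10, Bcl2a1c, Bok, Bik and Hrk, at 8 counts or fewer per library.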
